A study of Mus musculus with 9 samples.

Results

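Livers of mice that flew in space on a centrifuge giving about 1 g (artificial gravity, A1G) were compared with livers of ground control mice (GC), over all genes. The comparison used 6 of the 9 libraries of the series by their labelled group, 3 A1G and 3 GC, and the 3 libraries of mice flown in microgravity (MG) entered only where stated. All 9 mice were wild-type males of the C57BL/6J strain, each library is the liver of 1 mouse, and the labels give no age. The A1G and MG mice flew together for 30 days and were dissected on Earth after their return. The GC mice were kept in flight-type cages in Japan, at another date and at a lower CO2 concentration, so flight, launch, landing, transport, site, date and air cannot be told apart in this contrast. A1G mice had gravity close to that of the ground, and the comparison asks how the liver transcriptome of flown mice differed from that of ground mice when weightlessness was largely removed.

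The liver makes fatty acids and cholesterol from acetyl-CoA when carbohydrate is plentiful, under the transcription factors of the SREBP family and ChREBP. It burns fatty acids through genes that PPARα turns on, clears foreign compounds through genes that CAR, PXR and NRF2 turn on, and stores vitamin A in stellate cells. Many rodent liver genes also differ between the sexes through the rhythm of growth hormone release, the major urinary protein (Mup) genes of males among them.

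Poly(A) RNA was measured as estimated counts per gene, with totals of 19490377 to 23738049 per A1G library and 17399418 to 23506273 per GC library. CPM are counts scaled to a common library size after TMM, and TPM are the deposited values per transcript length. A1G replicate 1 stood apart from A1G replicates 2 and 3, with a chi-square per gene of 84.4 and 84.0 against them, where replicates 2 and 3 gave 17.5 against each other and counting error alone gives about 1. Pairs of GC mice gave 24.6 to 66.8. By correlation of log2 CPM, A1G replicate 1 gave 0.973 and 0.975 against the other A1G mice, which gave 0.981 against each other. These values lie within the range of the GC pairs, 0.969 to 0.983. Over all genes, replicate 1 thus stood apart by chi-square and not by correlation, and single gene lists are given below. Hepatocyte markers summed to 59600 to 63400 TPM in A1G and 50800 to 59900 TPM in GC, and none of the 8 passed the test (edgeR, 2 lower at an unadjusted p under 0.05, and 2 lower with DESeq2 on all 9 libraries). Mup transcripts took 4.12% to 5.31% of all counts in A1G livers and 8.21% to 13.3% in GC livers. Nothing in the labels marks a sequencing batch.

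Of 13193 genes tested, 23 were higher and 62 lower in A1G than in GC at an adjusted p under 0.05 (edgeR's quasi-likelihood test, Benjamini-Hochberg over all genes tested), 0.644% of the genes tested. A gene is said here to rise, fall or change only at that threshold. The CPM of the 85 genes did not overlap between the 3 A1G and the 3 GC mice, which held for 19.4% of all genes tested. Of the 85, 49 differed by at least 1 on the log2 scale, and 1876 genes had an unadjusted p under 0.05. The median log2 fold change over all genes tested was 0.0035. As no source says more than that each library is 1 mouse, p-values set the group difference against the spread of mice within groups. That spread holds no variation between flights or between ground runs.

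Of the lists examined, the one with the most changed genes held those that make fatty acids and triglycerides. Of its 38 tested members, 13 fell and 0 rose, against 0.47% lower and 0.174% higher among all genes tested, and the median log2 fold change of the list was −0.61. At an unadjusted p under 0.05, 24 members were lower and 0 higher. The 13 run along the pathway from acetyl-CoA (*Acss2*, *Acly*), through its carboxylation (*Acaca*, *Acacb*), chain building (*Fasn*), elongation and desaturation (*Elovl6*, *Fads2*), to triglyceride (*Lpin1*, *Lpin2*) and lipid droplet lipases (*Pnpla3*, *Pnpla5*). *Pklr*, the liver pyruvate kinase that feeds the pathway from glucose, and *Tmem97* complete them. *Tmem97*, a sterol-responsive membrane protein, was counted with this list but is not a step of the pathway.

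*Acss2*, which makes acetyl-CoA from acetate (chromosome 2, 155517948 to 155585724, GRCm38), had 121, 164 and 128 CPM in A1G replicates 1 to 3, against 326, 377 and 325 CPM in GC replicates 1 to 3. The highest A1G mouse lay below the lowest GC mouse by more than either group's own range, and the log2 fold change was −1.32 ± 0.14 (SE, n = 3 each, adjusted p = 0.00481, edgeR). *Fasn*, the fatty acid synthase (chromosome 11, 120805846 to 120824547), had 750.4, 840.3 and 598 CPM in A1G and 1769, 1575 and 1623 CPM in GC, a log2 fold change of −1.18 ± 0.13 (adjusted p = 0.00682, edgeR). The 3 A1G mice were all well below the 3 GC mice. *Lpin1*, a phosphatidate phosphatase that makes diacylglycerol and also acts in the nucleus (chromosome 12, 16535669 to 16610966), had 35.4, 54.9 and 62.6 CPM in A1G, against 257, 309.8 and 175 CPM in GC. Its log2 fold change of −2.28 ± 0.24 (adjusted p = 0.00481, edgeR) was the largest of these 3 genes, and no A1G mouse came near the GC range. *Lpin2*, its paralogue, fell less, by 0.93 ± 0.13 on the log2 scale (adjusted p = 0.0137, edgeR).

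Among enzymes that shape the chains, *Elovl6*, which lengthens palmitate to stearate, had 99, 175 and 162 CPM in A1G, against 348, 558 and 444 CPM in GC (log2 fold change −1.63 ± 0.22). Replicate 1 was the lowest A1G mouse, and the gene still passed without it (adjusted p = 0.0116, edgeR). *Pklr* had 112, 231 and 212 CPM in A1G, against 649, 674 and 600.5 CPM in GC (−1.79 ± 0.25), and *Acly*, the ATP citrate lyase, had 173, 324 and 326 CPM in A1G, against 564, 603 and 667 CPM in GC (−1.16 ± 0.21). In all 3 genes A1G replicate 1 was the lowest of the 6 mice. *Fads2*, a fatty acid desaturase, fell by 0.64 ± 0.13 (adjusted p = 0.0498, edgeR), and *Fads1*, another desaturase, just missed the threshold with −0.60 ± 0.12 (adjusted p = 0.0561, edgeR). The TPM of *Fads2* overlapped between groups, with 353, 428 and 402 TPM in A1G and 395, 570 and 569 TPM in GC.

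The patatin-like lipases were scarce transcripts with the largest ratios of the list. *Pnpla3*, which acts on lipid droplet triglycerides and retinyl esters, had 0.897, 2.26 and 1.32 CPM in A1G, against 18.8, 9.14 and 6.22 CPM in GC (log2 fold change −2.94 ± 0.48, adjusted p = 0.028, edgeR). *Pnpla5*, its close relative, had 0, 0.653 and 0.280 CPM in A1G, against 6.35, 7.16 and 3.11 CPM in GC (−4.17 ± 0.71, adjusted p = 0.0316, edgeR). Both were low in every A1G mouse, and the GC mice differed among themselves by more than 2 times. *Acaca*, the cytosolic acetyl-CoA carboxylase, fell by 0.65 ± 0.12 on the log2 scale in counts, but its TPM overlapped between groups, with 42.2, 32.2 and 49.4 TPM in A1G and 25.6, 41.1 and 59.3 TPM in GC.

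**Figure D1:**
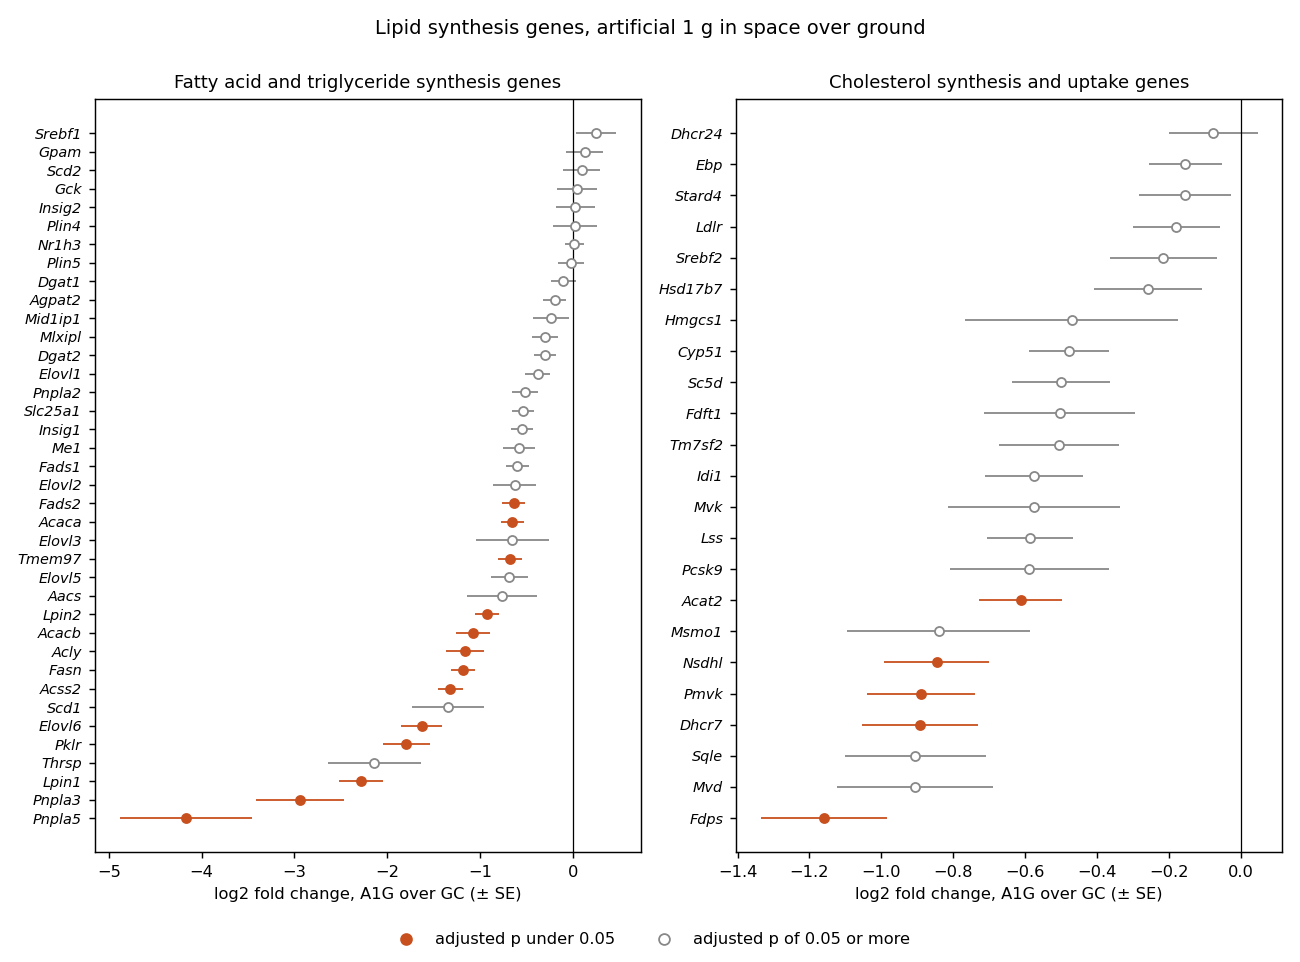
Log2 fold change of A1G over GC (x axis, points with SE bars, 3 mice per group) for tested genes of the fatty acid and triglyceride list (left) and the cholesterol list (right), filled where the adjusted p was under 0.05. All filled points, 13 of them in the fatty acid and triglyceride list, lie left of 0, and so does every cholesterol gene shown.

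The promoters of 4 of the genes that fell are shown, all picked from those with a CCAAT box. Such boxes bind the factor NF-Y, which works beside SREBP at lipid promoters. The motif is the shortest of those searched and was the commonest among all tested genes as well. These 4 promoters do not stand for the group. Each is the 150 bases before the RefSeq start on GRCm38.p6, 5′ to 3′ on the gene's strand, with every CCAAT box on either strand (CCAAT or ATTGG) in capitals. The windows are *Fasn* at chr11:120824548-120824697 on the minus strand, *Pnpla3* at chr15:84167666-84167815 on the plus strand, *Pnpla5* at chr15:84123176-84123325 on the minus strand and *Pmvk*, of the cholesterol list, at chr3:89454391-89454540 on the plus strand.
Fasn: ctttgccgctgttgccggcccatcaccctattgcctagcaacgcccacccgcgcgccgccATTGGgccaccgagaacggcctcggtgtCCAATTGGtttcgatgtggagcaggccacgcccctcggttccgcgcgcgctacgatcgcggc
Pnpla3: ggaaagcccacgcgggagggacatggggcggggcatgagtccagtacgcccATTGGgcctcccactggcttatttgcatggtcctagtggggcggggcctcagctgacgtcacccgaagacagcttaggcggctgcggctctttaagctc
Pnpla5: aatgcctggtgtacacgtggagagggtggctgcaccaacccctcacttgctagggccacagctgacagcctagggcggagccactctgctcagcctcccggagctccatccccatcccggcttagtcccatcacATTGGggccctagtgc
Pmvk: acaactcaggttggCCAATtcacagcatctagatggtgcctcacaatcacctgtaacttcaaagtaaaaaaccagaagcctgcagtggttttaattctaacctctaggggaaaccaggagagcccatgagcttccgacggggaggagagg
*Fasn* carried 3 boxes, with their last base 55, 58 and 86 bases before the start, of which the nearer pair overlap, and the other promoters carried 1 each, at 95 (*Pnpla3*), 12 (*Pnpla5*) and 132 (*Pmvk*) bases.

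Promoter windows were at hand for 17 of the 19 lipid genes that fell, and not for *Fdps*. In windows of 250 bases before to 50 after the start, CCAAT stood on either strand in 12 of the 17 genes (70.6%), against 41.1% of 27025 genes with a window and 43.0% of the tested ones. CACGTG, an E-box that many factors bind, stood in 3 (17.6%, *Dhcr7*, *Lpin2* and *Pnpla5*), against 11.3% of tested genes. TCACNCCAC, a form of the sterol response element, stood in 0 of 17, against 1.5% of tested genes. These are matches of letters in short windows and were not tested.

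Cholesterol synthesis genes were also lower. Of 24 tested members of the cholesterol synthesis and uptake list, 6 fell and 0 rose, 17 were lower at an unadjusted p under 0.05, and all 24 had a negative log2 fold change, with a median of −0.58. Among the 6 that fell are *Acat2* at the entry of the pathway, *Pmvk* and *Fdps* in the mevalonate and isoprenoid steps, and *Nsdhl* and *Dhcr7* at its sterol end. With scaling by library size only 21 of the 24 stayed negative, and in TPM 18.

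*Fdps*, which makes farnesyl pyrophosphate, had 129.7, 206 and 169.7 CPM in A1G, against 406, 421 and 302 CPM in GC (log2 fold change −1.16 ± 0.18, adjusted p = 0.0228, edgeR). The groups did not overlap, and A1G replicate 1 was the lowest mouse. *Pmvk*, the phosphomevalonate kinase, fell by 0.89 ± 0.15, *Nsdhl*, a sterol dehydrogenase, by 0.85 ± 0.15, *Dhcr7*, the last reductase, by 0.89 ± 0.16, and *Acat2*, which joins acetyl-CoA units, by 0.61 ± 0.12 on the log2 scale. Next in order, *Sqle*, the squalene epoxidase, had −0.91 ± 0.20 (adjusted p = 0.0648), *Lss*, the lanosterol synthase, −0.59 ± 0.12 (0.0559) and *Cyp51*, the lanosterol demethylase, −0.48 ± 0.11 (0.0890, all edgeR). They did not pass the test.

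**Figure D2:**
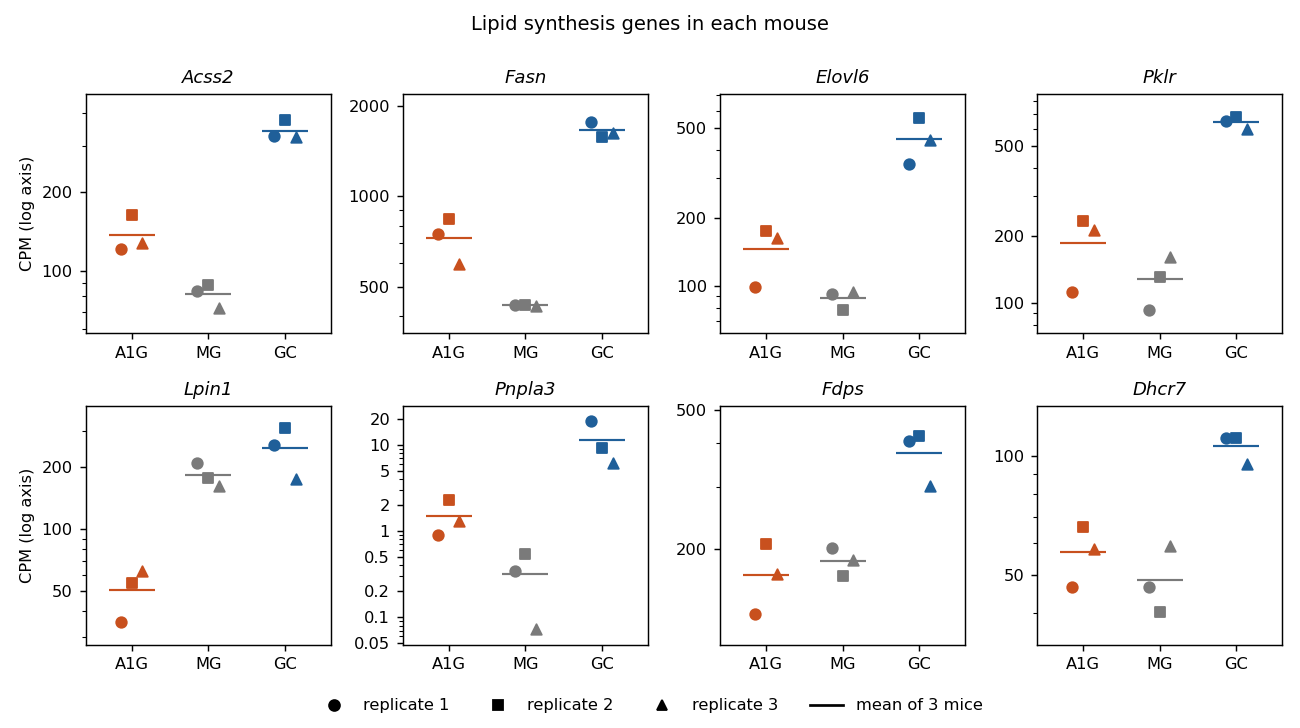
CPM of 8 lipid synthesis genes on log axes in each A1G, MG and GC mouse, with symbols for the replicate and a line at the mean of 3 mice. In all 8 panels the 3 A1G points lie below the 3 GC points, for example 121 to 164 CPM against 325 to 377 CPM for Acss2, and for Lpin1 the MG mice lie apart from A1G at 162 to 209.5 CPM.

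How many lipid genes passed rested on single libraries, while the medians of both lists stayed negative. The count of lower fatty acid and triglyceride genes was 8 without A1G replicate 1, 3 without A1G replicate 3, 8 and 7 without MG replicates 1 and 2, which enter through the shared spread, and 5 without either GC replicate 1 or 2, with a median between −0.63 and −0.54. For cholesterol genes it was 1 without A1G replicate 1, 2 without MG replicate 1 or 2 and 0 without A1G replicate 3, GC replicate 1 or GC replicate 2, with a median between −0.67 and −0.48. A1G replicate 1 was the lowest of the 6 mice in 21 of the 38 fatty acid and triglyceride genes (55.3%) and in 18 of the 24 cholesterol genes (75.0%), against 22.0% of all genes tested. By library size 8 and 1 members of these 2 lists passed and with limma on TPM 7 and 1, against 20 and 13 with DESeq2 on all 9 libraries.

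Outside these lists, 5 further genes that fell were picked after their values were seen, and they stand for no group. *Pdk1*, a kinase that holds back pyruvate dehydrogenase, had 87.7, 93.9 and 95.6 CPM in A1G, against 138, 139 and 139 CPM in GC (log2 fold change −0.59 ± 0.09, adjusted p = 0.0257, edgeR). Its separation was one of the tightest among the 85 genes in CPM only. In TPM the groups overlapped, with 37.6, 31.1 and 32.6 TPM in A1G and 33.3, 39.0 and 46.0 TPM in GC. *Eno1*, the glycolytic enolase, had 424, 482 and 431 CPM in A1G, against 706, 687 and 639 CPM in GC (−0.60 ± 0.11), and *Gpi1*, the glucose phosphate isomerase, fell by 0.56 ± 0.11 on the log2 scale. *Cyb5r3*, which passes electrons to desaturases and sterol enzymes, had 299.5, 421 and 333 CPM in A1G, against 717, 753 and 587 CPM in GC (−0.97 ± 0.14), and *Tlcd1*, a membrane lipid regulator, fell by 0.93 ± 0.16. All 5 had lower CPM in every A1G mouse than in any GC mouse.

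Of 20 tested members of the retinoid list, 2 rose, an enzyme that breaks down retinoic acid and another that acts on retinol, and the list's median was 0.03. *Cyp26b1*, which destroys retinoic acid (chromosome 6, 84571414 to 84593908), had 52.2, 19.1 and 50.8 CPM in A1G, against 3.71, 5.65 and 1.11 CPM in GC. A1G replicates 1 and 3 were close together and replicate 2 was lower, though still above every GC mouse, and the log2 fold change was 3.51 ± 0.46 (adjusted p = 0.0137, edgeR). *Retsat*, which saturates retinol to dihydroretinol, had 1599, 634 and 704 CPM in A1G, against 397, 253 and 316 CPM in GC (1.60 ± 0.31, adjusted p = 0.0474, edgeR), with replicate 1 more than 2 times either of the other A1G mice.

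Another 3 members, named by the smallest p, did not pass. They were *Aldh1a1*, which makes retinoic acid, with 0.80 ± 0.20 on the log2 scale (adjusted p = 0.107), *Rdh11*, a retinal reductase, with −0.56 ± 0.14 (0.125) and *Lrat*, which esterifies retinol in stellate cells, with 0.75 ± 0.23 (0.177, all edgeR). The number of higher retinoid calls was 0 without A1G replicate 3 or GC replicate 1 and 1 without MG replicate 1, MG replicate 2, GC replicate 2 or GC replicate 3.

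Of 26 tested targets of CAR and PXR, the nuclear receptors of drug response, 2 rose and 0 fell, with a median log2 fold change of 0.49. Before adjustment, 12 were higher and 2 lower at p under 0.05 (edgeR). *Cyp2b10*, the standard CAR reporter of the mouse, had 2.87, 2.41 and 4.84 CPM in A1G, against 0.440, 0.367 and 0.293 CPM in GC (3.17 ± 0.41, adjusted p = 0.0137, edgeR). *Cyp2c29* had 1057, 1083 and 1122 CPM in A1G, against 575, 520.1 and 499 CPM in GC (1.03 ± 0.14, adjusted p = 0.0148, edgeR). Both groups were narrow for *Cyp2c29*, and *Cyp2b10* was scarce in every mouse. *Cyp2c54* (0.83 ± 0.18, adjusted p = 0.0641) and *Cyp2c37* (0.63 ± 0.14, 0.0705, both edgeR) did not pass. *Cyp2b9*, a female-biased relative, was high only in A1G replicates 1 and 3, at 6.81, 0.101 and 4.88 CPM in A1G against 0.0977, 0.0918 and 0 CPM in GC (adjusted p = 0.0795, edgeR). Reads of the near-identical Cyp2b and Cyp2c genes may have been shared between copies. The list had 0 calls without A1G replicate 3 or GC replicate 2 and 4 without A1G replicate 2.

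PPARα targets rose at 4 of 43 tested members and fell at 0, with a median of 0.31. Before adjustment, 20 members were higher and 1 lower at p under 0.05 (edgeR). The 4 that rose act on fatty acids outside the main mitochondrial cycle. They are *Cyp4a14* and *Cyp4a31*, ω-hydroxylases, *Acot1*, which frees fatty acids from CoA, and *Crat*, which carries acetyl groups on carnitine. *Crat* was even across mice, with 114, 100.1 and 98.4 CPM in A1G, against 60.1, 52.5 and 60.8 CPM in GC (0.85 ± 0.14, adjusted p = 0.0316, edgeR). *Cyp4a14* had 6483, 1084 and 1275 CPM in A1G, against 159.6, 128 and 127 CPM in GC (4.41 ± 0.60), *Cyp4a31* had 48.4, 11.3 and 14.2 CPM in A1G, against 5.81, 3.58 and 2.88 CPM in GC (2.58 ± 0.50), and *Acot1* had 295, 138 and 126 CPM in A1G, against 79.9, 67.2 and 57.8 CPM in GC (1.45 ± 0.28). In these 3 genes A1G replicate 1 was more than 2 times the other A1G mice, which themselves lay above every GC mouse. Cyp4a genes and *Acot1* have near-identical copies, so their split is uncertain.

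Among members that did not pass, some were also highest in replicate 1. *Ehhadh*, a peroxisomal β-oxidation enzyme, had 3303, 411 and 543 CPM in A1G, against 268, 249 and 245 CPM in GC (log2 fold change 2.48 ± 0.62, adjusted p = 0.115, edgeR), and *Cyp4a10* had 3480.0, 943 and 937 CPM in A1G, against 512, 272 and 179.6 CPM in GC (2.48 ± 0.50, 0.0551). *Cpt2*, a carnitine transferase of mitochondrial fatty acid entry, was more even and just missed the threshold at 0.55 ± 0.11 (adjusted p = 0.0505, edgeR), while *Acadm*, a mitochondrial acyl-CoA dehydrogenase (0.70 ± 0.16, 0.0900), and *Vnn1*, a pantetheinase (1.36 ± 0.34, 0.110), did not pass. The number of calls was 1 without A1G replicate 3, 2 without MG replicate 1, MG replicate 2 or GC replicate 3, and 0 without GC replicate 1 or 2. Without A1G replicate 1 the list had 3 calls and a median of 0.18.

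**Figure D3:**
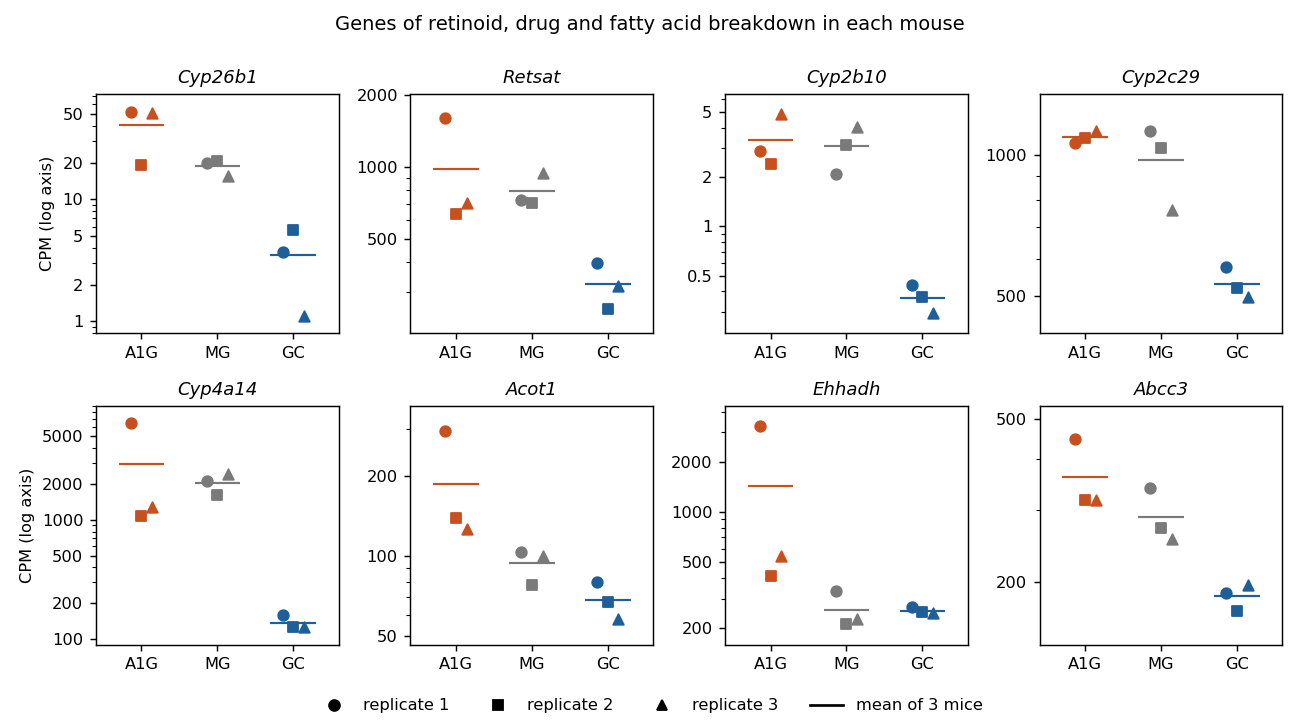
CPM of 8 genes of retinoid, drug and fatty acid breakdown on log axes in each A1G, MG and GC mouse, with symbols for the replicate and a line at the mean of 3 mice. Every A1G point lies above every GC point, and A1G replicate 1 (circle) stands apart in Retsat, Cyp4a14, Acot1 and Ehhadh, where it reached 3303 CPM against 411 and 543 CPM in the other A1G mice.

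The NRF2 and thiol redox list, which bears on the study's interest in sulfur metabolism, had 1 member higher and 0 lower of 40 tested, with a median of 0.54. Before adjustment, 18 members were higher and 7 lower at p under 0.05 (edgeR), against 872 and 1004 of all 13193 genes tested. The member that rose was *Abcc3*, an exporter of conjugated bile acids and drugs, with 448, 317 and 317 CPM in A1G, against 189, 170.1 and 197 CPM in GC (0.96 ± 0.16, adjusted p = 0.0313, edgeR). Its call was lost without A1G replicate 3, MG replicate 2, GC replicate 1 or GC replicate 2, and without A1G replicate 2 the list had 3 calls. *Gsr*, which regenerates glutathione, had 106, 75.5 and 74.6 CPM in A1G, against 58.4, 50.3 and 52.1 CPM in GC (0.67 ± 0.14, adjusted p = 0.0559, edgeR), without overlap but short of the threshold. *Srxn1*, the sulfiredoxin that repairs peroxiredoxins, had 92.6, 39.1 and 40.3 CPM in A1G, against 23.0, 23.8 and 26.9 CPM in GC (1.22 ± 0.28, 0.0803). *Aox1*, an aldehyde oxidase (1.09 ± 0.24, 0.0668), and *Txnrd1*, the thioredoxin reductase (0.53 ± 0.13, 0.111), did not pass either. The paper, which used DESeq2, reported an oxidative stress gene set as upregulated in A1G against GC. In the refit here, DESeq2 on all 9 libraries called 154 of all genes higher, against 23 with edgeR. The count of 1 for the NRF2 list is that of edgeR.

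The level of this list depended on 1 mouse. Without A1G replicate 1 its median was 0.10, and 28 of its 40 members (70.0%) were highest of the 6 mice in that library, against 22.4% of all genes tested. The shares were 67.4% for PPARα targets and 76.2% for heat shock protein genes, of which 0 of 21 passed (0 at an unadjusted p under 0.05 by edgeR, and 0 with DESeq2 on all 9 libraries). Taking each mouse's median log2 CPM over the list minus the GC mean, NRF2 genes stood at 0.93, 0.14 and 0.07 in A1G replicates 1 to 3 and at 0.15, −0.05 and −0.11 in GC. PPARα targets stood at 0.56, 0.21 and 0.13 in A1G, against 0.23, −0.08 and −0.13 in GC. *Gsta1*, a glutathione transferase with close copies, showed the same mouse, with 33.4, 2.66 and 2.12 CPM in A1G, against 1.22, 0.826 and 0 CPM in GC (adjusted p = 0.123, edgeR). In the same library erythroid markers stood at −1.65 and hepatocyte markers at −0.39, and their part in the lists was not tested. The fatty acid list stood at −0.60, −0.45 and −0.67 in A1G, against 0.01, 0.03 and −0.02 in GC, and the cholesterol list at −0.76, −0.40 and −0.63 in A1G, against 0.06, 0.02 and −0.08 in GC.

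**Figure D4:**
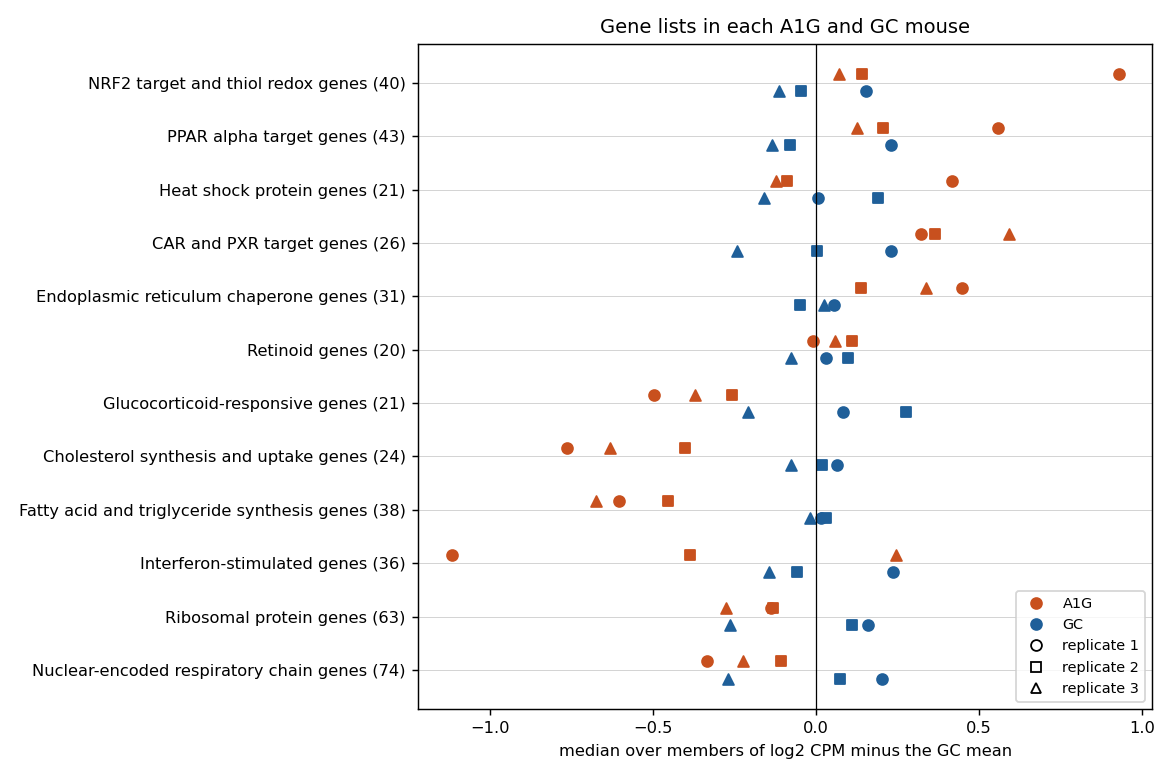
Median over the tested members of 12 gene lists (number in brackets) of log2 CPM minus the GC mean, in each A1G mouse (upper row of each pair) and each GC mouse (lower row). A1G replicate 1 stands far right for NRF2 genes (0.93 against 0.14 and 0.07 in the other A1G mice), and the 3 A1G mice lie together, left of GC, for the fatty acid list.

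Of the remaining sulfur lists, none of the 27 tested genes of methionine, cysteine and taurine metabolism and none of the 22 glutathione and thiol peroxidase genes passed in edgeR. At an unadjusted p under 0.05, 1 was higher and 8 lower in the methionine list and 1 higher and 4 lower in the peroxidase list, with medians of −0.15 and −0.08. With DESeq2 on all 9 libraries 1 gene of each list passed, both lower.

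Glucocorticoid-responsive genes were lower at 2 of 21 tested members, with a median of −0.41. Before adjustment, 2 were higher and 9 lower at p under 0.05 (edgeR). *Tsc22d3*, the glucocorticoid-induced leucine zipper, had 67.6, 86.7 and 63.2 CPM in A1G, against 158, 181 and 117 CPM in GC (−1.07 ± 0.19, adjusted p = 0.0360, edgeR). *Zbtb16*, a transcription factor that glucocorticoids induce, had 19.1, 14.4 and 18.3 CPM in A1G, against 45.6, 51.0 and 27.9 CPM in GC (−1.27 ± 0.25, adjusted p = 0.0498, edgeR). GC replicate 3 was the lowest GC mouse in both, still above every A1G mouse. *Tat*, the tyrosine aminotransferase, just missed the threshold at −0.72 ± 0.14 (adjusted p = 0.0529), while *Per1* (−0.96 ± 0.27, 0.151), a clock gene, and *Angptl4* (−1.09 ± 0.28, 0.127, both edgeR), an inhibitor of lipoprotein lipase, did not pass. Neither *Tsc22d3* nor *Zbtb16* passed without A1G replicate 1 (adjusted p = 0.109 each, edgeR), where the list had 1 call of another gene. The list had 0 calls without A1G replicate 3, MG replicate 2, GC replicate 1 or GC replicate 2, and 4 without MG replicate 3. In TPM the list's median was 0.03, against 0.24 for all genes.

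Among genes that differ between the sexes, 7 of 43 tested male-biased genes fell and 0 rose, with a median of −0.83, and 3 of 30 tested female-biased genes rose and 1 fell, with a median of 0.33. Before adjustment, at p under 0.05 (edgeR), 25 male-biased genes were lower and 0 higher, and 12 female-biased genes were higher and 2 lower. The male-biased genes that fell were *Mup1*, *Mup7*, *Mup17*, *Moxd1*, *Cib3*, *Cyp2d9* and *Ugt2b1*. *Cyp2d9*, a steroid hydroxylase, fell by 0.77 ± 0.15 on the log2 scale and *Ugt2b1*, a glucuronosyltransferase, by 0.76 ± 0.14 (adjusted p = 0.0458 each, edgeR). On the female-biased list, *Prlr*, the prolactin receptor, had 139, 92.2 and 101 CPM in A1G, against 67.6, 58.4 and 62.9 CPM in GC (0.81 ± 0.15, adjusted p = 0.0385, edgeR), *Cyp4a14*, described above, rose as well, and *Fabp5*, a fatty acid-binding protein, was the member that fell. A1G replicate 1 stood apart in the male-biased list, at −1.24, −0.52 and −0.62 in A1G replicates 1 to 3, against 0.08, 0.04 and −0.16 in GC, and was the lowest of the 6 mice in 28 of its 43 genes (65.1%), against 22.0% of all genes tested. The number of male-biased genes called lower was 0 when A1G replicate 3 was left out, 2 for GC replicate 1, and 3 for any one of A1G replicate 1, MG replicate 2 and GC replicate 2. The number of female-biased genes called higher was 6 when A1G replicate 2 was left out, 1 for A1G replicate 3 or GC replicate 3, and 0 for GC replicate 1 or 2, and none was called lower when A1G replicate 3 or GC replicate 2 was left out.

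Some further genes that fell are on neither of these lists. *Gulo*, an enzyme of vitamin C synthesis, fell by 0.96 ± 0.19 on the log2 scale (adjusted p = 0.0498, edgeR). *Mup15* had 1133, 1255 and 1343 CPM in A1G, against 9221, 4170.0 and 3597 CPM in GC (−2.19 ± 0.30, adjusted p = 0.0137, edgeR), and *Mup14* fell by 1.83 ± 0.32 and the scarce *Mup8* by 1.86 ± 0.34. Mup copies are nearly identical, so which copy fell is uncertain.

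Other genes were named by size of change. *Acnat2*, which links fatty acids to amino acids in the peroxisome, had 125, 62.9 and 72.5 CPM in A1G, against 30.9, 23.8 and 28.5 CPM in GC (1.65 ± 0.24, adjusted p = 0.0200, edgeR). *Hipk2*, a stress kinase, had 66.3, 34.7 and 53.8 CPM in A1G, against 12.4, 17.3 and 27.8 CPM in GC (1.44 ± 0.27, adjusted p = 0.0458, edgeR). *Cers6*, a ceramide synthase, rose by 1.02 ± 0.19, *Impact*, a regulator of the kinase GCN2, by 1.23 ± 0.24, and *Nav2*, a cytoskeletal protein, by 0.86 ± 0.16 on the log2 scale. *Gm45808*, a predicted protein-coding gene (chromosome 7, 45465984 to 45486811), had 1.17, 3.22 and 2.32 CPM in A1G and 0 CPM in all 3 GC mice. That is 148 counts over the A1G libraries against 0 over the GC libraries, at least 43.5-fold higher against a floor of 3 counts over the GC group, which covers counting error only (adjusted p = 0.0137, edgeR).

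On the lower side, *Fabp5* had 6.54, 23.7 and 11.6 CPM in A1G, against 70.8, 144 and 76.8 CPM in GC (−2.81 ± 0.40, adjusted p = 0.0158, edgeR). *Chrna4*, a nicotinic receptor subunit better known from neurons, had 1.34, 1.96 and 0.680 CPM in A1G, against 10.1, 12.3 and 5.58 CPM in GC (−2.82 ± 0.43, adjusted p = 0.0234, edgeR). *Cib3*, a calcium-binding protein, had 0.493, 2.11 and 2.04 CPM in A1G, against 12.6, 14.8 and 5.11 CPM in GC (−2.81 ± 0.50), and *Hcn3*, a cation channel, had 6.19, 17.1 and 18.8 CPM in A1G, against 57.0, 56.7 and 45.2 CPM in GC (−1.92 ± 0.33). These 4 genes separated the groups with gaps of more than 2 times. *Hcn3* (chromosome 3, 89146074 to 89160196, minus strand) overlaps the end of *Pklr* (89136142 to 89146784, plus strand), which also fell. Whether reads of *Pklr* were counted as *Hcn3* was not tested. *Gne*, which starts sialic acid synthesis, at −0.76 ± 0.15 (adjusted p = 0.0498), and *Mtmr9*, a phosphatase-like protein, at 0.54 ± 0.10 (0.0474, both edgeR), were among the calls closest to the threshold.

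*Cela1*, an elastase, was the one pancreas marker with enough counts to test. It had 6.77, 10.2 and 7.12 CPM in A1G, against 18.6, 16.7 and 15.3 CPM in GC (−1.07 ± 0.19, adjusted p = 0.0360, edgeR). The 10 pancreas markers summed to 33.1 to 45.5 TPM in A1G and 49.9 to 63.8 TPM in GC, nearly all of it *Cela1*, and defining genes such as *Prss2*, a trypsinogen, and *Pnlip*, the pancreatic lipase, were near 0 in every mouse.

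None of the listed markers of non-parenchymal cells passed, and called genes off these lists were not sorted by cell type. In bulk liver, fewer cells of a type and less RNA per cell cannot be told apart. Sinusoidal endothelial markers summed to 146 to 166 TPM in A1G and 87.0 to 135 TPM in GC, without overlap, but none of 10 passed in edgeR (3 higher at an unadjusted p under 0.05, 1 passing with DESeq2 on all 9 libraries). *Pecam1*, an endothelial adhesion molecule, had 0.60 ± 0.15 (adjusted p = 0.115), *Kdr*, a VEGF receptor, 0.65 ± 0.22 (0.223) and *Ehd3* 0.38 ± 0.12 (0.203, all edgeR). Kupffer cell and macrophage markers summed to 226 to 353 TPM in A1G and 206 to 311 TPM in GC, overlapping. Stellate and fibroblast markers summed to 223 to 272 TPM in A1G and 217 to 255 TPM in GC, also overlapping. T, NK and B lymphocyte markers were scarce, at 4.34 to 6.69 TPM in A1G and 6.24 to 16.1 TPM in GC.

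Interferon-stimulated genes differed more within A1G than between groups. None of 36 passed (edgeR, with 3 lower and 0 higher before adjustment, at p under 0.05, and 0 passing with DESeq2 on all 9 libraries), and the list stood at −1.12, −0.39 and 0.25 in A1G replicates 1 to 3, against 0.24, −0.06 and −0.14 in GC. Its median log2 fold change of −0.29 became −0.74 without A1G replicate 3, −0.11 without GC replicate 1, −0.17 without A1G replicate 2 and 0.03 without A1G replicate 1. *Psmb8*, an immunoproteasome subunit, had 6.77, 14.8 and 22.8 CPM in A1G, against 31.3, 24.6 and 19.9 CPM in GC (−0.77 ± 0.33, adjusted p = 0.320, edgeR), *Bst2*, a virus-tethering protein, had −0.48 ± 0.15 (0.186) and *Ifi27* −0.56 ± 0.27 (0.380). The same A1G mouse, replicate 1, that was highest for NRF2 genes was lowest for this list.

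The 63 ribosomal protein genes and 74 nuclear-encoded respiratory chain genes all had a negative log2 fold change, with medians of −0.20 and −0.23, yet none passed (edgeR, 6 and 20 of them lower before adjustment, at p under 0.05, and 0 and 3 lower with DESeq2 on all 9 libraries). That direction rested on the scaling. With library size only, 34 and 51 of them were negative, and in TPM 11 and 22. These scalings move the median of all genes to 0.18 and 0.24, against which both lists were lower, with medians of −0.01 and −0.05 by library size and 0.10 and 0.05 in TPM. Of all calls, 65.8% were higher in A1G by library size and 67.5% in TPM, against 27.1% with TMM.

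Where A1G mice also differed from MG mice, the 2 flown groups can be set beside the ground. In MG against A1G 10 genes passed (7 higher and 3 lower in MG, 0.0758% of those tested). This contrast shares its A1G mice with A1G against GC. *Lpin1* had 209.5, 176 and 162 CPM in MG, against 35.4, 54.9 and 62.6 CPM in A1G (MG over A1G 1.84 ± 0.23, adjusted p = 0.0401, edgeR), and the MG values overlapped the GC range of 175 to 309.8 CPM. *Acacb*, the mitochondrial acetyl-CoA carboxylase, ran the other way, with 70.1, 62.5 and 87.6 CPM in MG, against 169.6, 228 and 171 CPM in A1G (−1.37 ± 0.19, adjusted p = 0.0401, edgeR), and the GC mice had 304, 437 and 459 CPM. *Idi1*, an isomerase of isoprenoid synthesis, did not pass in A1G against GC (−0.57 ± 0.14, adjusted p = 0.0981) but was higher in MG than in A1G by 1.00 on the log2 scale (0.0401). *Rgs16*, an inhibitor of G protein signals picked after its values were seen, had 76.8, 58.8 and 142 CPM in MG, against 17.6, 14.5 and 13.8 CPM in A1G (2.59 ± 0.38, adjusted p = 0.0413, edgeR), and A1G lay below GC at 84.2, 52.1 and 29.5 CPM (adjusted p = 0.0508). The number of calls was 0 without any one of A1G replicates 2 and 3, MG replicates 1 and 2 and GC replicates 1 and 2, 17 without MG replicate 3 and 48 without A1G replicate 1.

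**Figure D5:**
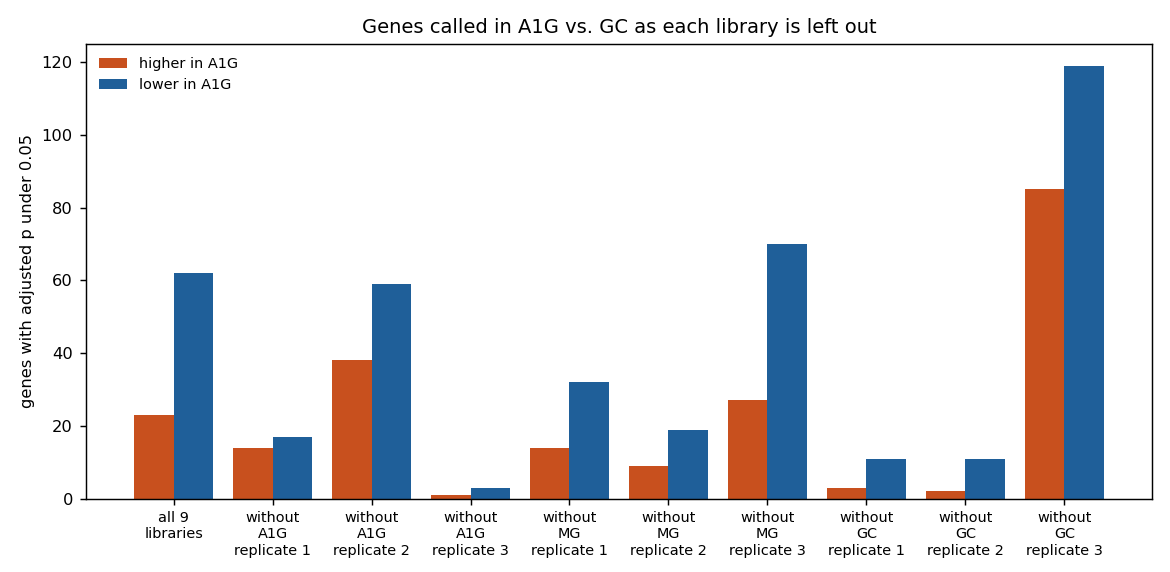
Genes with an adjusted p under 0.05 in A1G against GC, higher (left bar) and lower (right bar) in A1G, for all 9 libraries and with each library left out in turn. All 9 libraries give 23 and 62, leaving out A1G replicate 3 gives 1 and 3, and leaving out GC replicate 3 gives 85 and 119.

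Which genes passed rested on the libraries used. The number of calls was 31 without A1G replicate 1, 4 without A1G replicate 3, 46 and 28 without MG replicates 1 and 2, 14 and 13 without GC replicates 1 and 2, and 204 without GC replicate 3. Only *Acss2*, *Fasn* and *Lpin1* passed with each of the 9 left out, 7 genes passed with at least 8 of them and 19 with at least 6. All 85 kept their direction in each of these fits.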

How the data were processed

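Liver poly(A) RNA of 9 mice was sequenced from stranded libraries (NEBNext Ultra Directional, NovaSeq). Per the labels and methods, the authors used fastp 0.19.4 for read trimming and Salmon 0.9.1 for quantification, on GRCm38. They deposited estimated counts per gene, not whole for 17.2% of values, and TPM, scaled to transcript length and to each library's sum. The annotation release is not given in the sources used here. The authors' own deposited comparison tables (log2 fold changes and p-values of DESeq) were not used.

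Counts were rounded and fitted in R 4.3.3 with edgeR 4.0.16 (filterByExpr with a minimum count of 10, TMM, all 9 libraries, quasi-likelihood test), which keeps 13193 of 34866 genes. At these depths counting error was smaller than the spread between mice on average (chi-square per gene of at least 17.5). That average leaves out the scarcest genes and does not show the same for each scarce gene. SE is the absolute log2 fold change over the square root of F, and log2 CPM used a prior count of 2. The procedure was tested on simulated data. Alternatives used other scalings and filters, DESeq2 1.42.0, limma 3.58.1 on log2 TPM with a pseudocount of 1 or 0.1, a replicate block and each library left out.

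Named genes were, for each direction, up to 15 called genes of largest change whose counts averaged 50 or more and whose groups did not overlap, called members of the lists, up to 5 further members of each list described by smallest p, and up to 5 calls nearest the threshold or with the smallest adjusted p. Genes picked otherwise are marked, and some genes that the rule names are not reported here. The members, lists and tests were chosen with earlier results of these data known. Positions are from GENCODE M21 and promoters from RefSeq.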

Additional observations from a re-analysis of the deposited data

Results flagged for a closer look

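Of the 10 genes that passed in the direct test between the flown groups, the 5 named in the text are given here. Their difference from ground was not the same in A1G and MG. *Lpin1* was higher in MG than in A1G, with a log2 fold change of 1.84 ± 0.23. *Prlr* was also higher in MG, with 247, 217 and 250.1 CPM in MG, against 139, 92.2 and 101 CPM in A1G, a log2 fold change of 1.10. *Idi1* and *Rgs16* were higher in MG by 1.00 and 2.59 on the log2 scale. *Acacb* was lower in MG than in A1G, with a log2 fold change of −1.37 ± 0.19. The adjusted p was 0.0413 for *Rgs16* and 0.0401 for the other 4 genes (edgeR, 3 mice per group). The CPM of all 5 did not overlap between MG and A1G, which adds no support, as the genes were chosen by that test.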

How the results depend on the processing

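In A1G against GC 85 genes were called. The count was 384 with no filter on low counts, 333 with DESeq2 on the 6 libraries compared, 410 with DESeq2 on all 9, 51 with edgeR on the 6 libraries compared, and 45 by library size without the Mup genes, an alternative chosen after seeing the data. It was 82 with RLE size factors, 82 with at least 10 counts in every library, 73 by library size only, and 80 and 65 with limma on log2 TPM plus 1 and plus 0.1. Leaving out 1 library gave 4 to 204. The cause of these differences was not tested. Calls that were higher in A1G made up 27.1% with TMM, 65.8% by library size, 55.6% without the Mup genes, 67.5% with TPM plus 1, 73.8% with TPM plus 0.1, 40.6% with no filter, and 36.9% and 37.6% with DESeq2 on 6 and 9 libraries, and the median of all genes moved to 0.18, 0.10, 0.24 and 0.27 in the first 4 of these alternatives. MG against A1G had 10 calls, and 188 with no filter, 176 and 185 with DESeq2 on 6 and 9 libraries, 0 with edgeR on 6 libraries (1189 genes at an unadjusted p under 0.05), 1 by library size, 2 and 0 with limma on TPM plus 1 and 0.1 (870 at an unadjusted p under 0.05 for the last), 23 without the Mup genes, and 0 to 48 with 1 library left out.

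A replicate block gave 145 calls in A1G against GC, 82 of them among the 85, and 44 in MG against A1G. The replicate numbers share no stated litter or batch, and same-numbered A1G and GC mice did not deviate together (correlations of 0.024, −0.008 and 0.041), so the block was not used. Of the genes named, *Acaca* and *Lss* turned positive with limma on TPM, at 0.0324 and 0.1255 with a pseudocount of 1 and at 0.0345 and 0.1305 with 0.1. *Acss2*, *Fasn* and *Lpin1* passed in all 11 alternatives other than leaving out a library. Genes of few counts, such as *Pnpla5* and *Cyp2b10*, carry wide errors.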
